A study of Mus musculus with 120 samples.

Results

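The strain labelled B6-Chr16MSM is a consomic mouse strain: it carries chromosome 16 of MSM/Ms (MSM), an inbred strain whose founders were wild mice caught in Japan, on the background of C57BL/6J (B6). It was represented by 2 males of the 60 in the series, measured on 4 of the 120 liver arrays, and was set against the 2 males (4 arrays) labelled B6. Both were chosen by strain label, and the arrays of a male were averaged. Of 18194 genes with a probe set on the array, 593 lie on chromosome 16, and 377 of these passed the filter on low values (at least 2 of the 60 males above 7.417, the median of all deposited values). The other 216 were not tested. None (0) of the 377 passed only through the males that carry MSM chromosome 16. The other 11572 tested genes, called elsewhere below, include 46 for which the annotation used gave no chromosome, and made 11949 in all.

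A consomic strain asks which differences between the parental strains travel with a single chromosome. A gene on the exchanged chromosome can differ because its own regulatory or coding sequence does, whereas a gene on any other chromosome is meant to carry the B6 allele in both strains. Neither the genotype outside chromosome 16 nor base differences between the alleles under the probes were tested here. A gene called higher or lower below is thus one whose array signal differed. In liver, chromosome 16 holds a cluster of secreted plasma proteins of the cystatin superfamily (the fetuins, histidine-rich glycoprotein and kininogen), the xenobiotic receptor gene Nr1i2, several enzymes of glycosylation and lipid synthesis, and, towards its distal end, counterparts of many genes of the human chromosome that is present in excess in Down syndrome.

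All groups were 10-week-old males whose livers were taken after 4 h without food, and no agent was given. B6 carries no MSM chromosome, B6-Chr16MSM has that of chromosome 16, and MSM (2 males, 4 arrays) carries all of them. The 27 other consomic strains each have another MSM chromosome, a part of one, or the MSM mitochondrial DNA, on the B6 background. B6 and these 27 strains, 56 males of 28 strains without MSM chromosome 16, served as a second reference. The arrays of a male were recognised by the animal number in the labels, which do not state that it marks 1 male, so each n of 2 rests on that reading. Precision is limited by how few arrays there are.

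The deposited log2 values hold very small differences: within strains, males differed with an SD of 5.95e-05 for the median gene (10th percentile 1.02e-05, 90th percentile 0.000806). How much a probe set was compressed differs between probe sets. A difference on this scale is therefore not a fold change and is not comparable in size between genes, so values are also given in residual SD: the distance from the mean of the 56 males divided by the SD between males of a strain for that gene (30 degrees of freedom). Over the genes of chromosome 16, each of the 4 B6-Chr16MSM arrays correlated best with the other array of its own male (Pearson r = 0.867 for male 1 and 0.829 for male 2). Over all tested genes this held for male 1 (r = 0.427), while the arrays of male 2 correlated best with an array of B6-Chr12CMSM (r = 0.604) and one of B6-Chr13TMSM (r = 0.397). In B6, the arrays of male 2 correlated best with each other over all tested genes (r = 0.576). Those of B6 male 1 correlated best with an array of B6-ChrYMSM (r = 0.563) and one of B6-Chr14MSM (r = 0.592). Over the genes of chromosome 16, too, neither array of B6 male 1 correlated best with the other. Hepatocyte markers were above the filter level in all 4 males of both strains for 9 of 9 measured genes. In bulk liver, fewer cells of a type and less RNA per cell cannot be told apart.

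Genes that differed from B6 all lay on the exchanged chromosome. limma called 23 of the 377 genes of chromosome 16 (6.1%) at an adjusted p below 0.05 (Benjamini-Hochberg over all 11949 genes), 10 higher and 13 lower in B6-Chr16MSM, against a background of 0.192% called over all genes. Of the 11572 genes elsewhere, none was called (0), with 576 at an unadjusted p below 0.05 (4.98%) and a smallest adjusted p of 0.129. On chromosome 16 the unadjusted threshold took 101 genes (26.8%). In all 23 called genes both B6-Chr16MSM males lay beyond both B6 males, which held for 59.4% of the genes of chromosome 16 and for 43.8% of all tested genes.

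Against the second reference, 39 genes of chromosome 16 were called (10.3%), 19 higher and 20 lower, and 2 elsewhere, with a background of 0.343%. The references share the B6 males and the B6-Chr16MSM males, so they are not independent of each other. A rule without any variance estimate asked that both B6-Chr16MSM males lie beyond all 56 males without MSM chromosome 16. It took 47 genes of chromosome 16 (12.5%), 19 above and 28 below, against 0.477% of all tested genes and 10 of the 11572 elsewhere (0.0864%). When both MSM males had to lie beyond the 56 on the same side too, 31 genes of chromosome 16 remained (14 above, 17 below), none elsewhere (0 of 11572), and 0.259% of all tested genes. As a check on B6 itself, B6 minus the 27 other consomic strains gave no call on chromosome 16 (0 of 377) and 1 elsewhere (0.00837% of all genes).

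**Figure D1:**
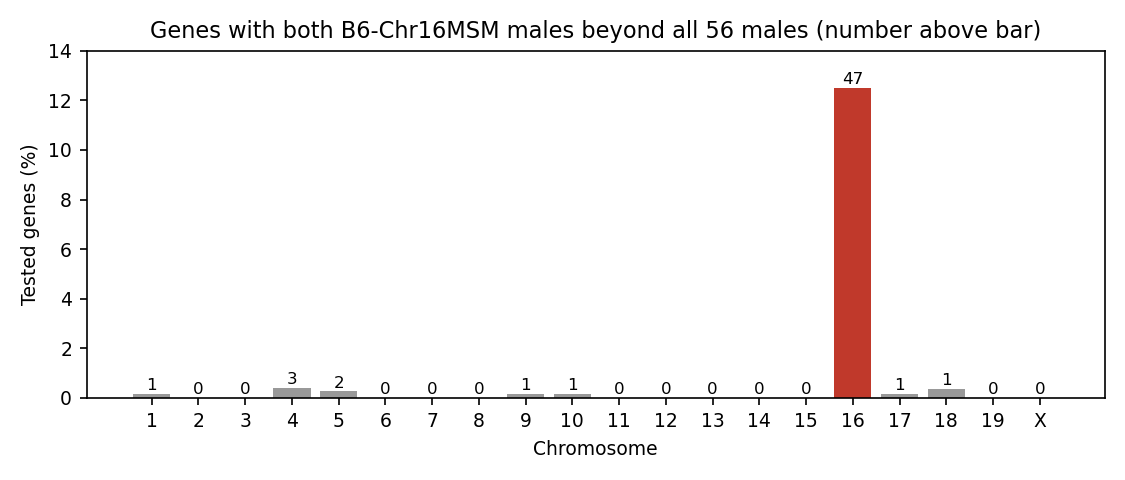
Share of tested genes (%, vertical axis) in which both B6-Chr16MSM males lay beyond all 56 males without MSM chromosome 16, for each chromosome, with the number of such genes above each bar. Chromosome 16 stands at 12.5% (47 of 377 genes), and no other chromosome exceeds 0.396% (chromosome 4).

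The counts depended on single males. Without B6-Chr16MSM male 1 or male 2, 11 and 12 genes of chromosome 16 were called against B6, and without B6 male 1 or male 2, 9 and 10. A fit on these strains alone, which leaves 2 residual degrees of freedom, called none (0). With every array in the fit and the male as a random block, 35 genes were called on chromosome 16 and 17 elsewhere. Against the second reference, 21 genes of chromosome 16 were called without either B6-Chr16MSM male, and 39 without either B6 male.

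Among the genes that fell was Cbr1, the carbonyl reductase that reduces quinones and other carbonyl compounds with NADPH. Its log2 values were 8.3114 and 8.3056 in the B6-Chr16MSM males, 8.3121 and 8.3083 in the MSM males and 8.3641 and 8.3661 in the B6 males, and the 56 males without MSM chromosome 16 ran from 8.3488 to 8.3950. The 4 males with MSM chromosome 16 lay together below all others. Cbr1 fell by 0.0567 ± 0.0088 (SE) against B6 (adjusted p = 0.000842) and by 0.061 ± 0.0063 against the second reference (adjusted p = 2.46e-07). With 1 of the 4 males left out in turn the adjusted p against B6 lay between 0.0152 and 0.0326.

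Pdxdc1, which encodes a protein with a pyridoxal-dependent decarboxylase domain, had the largest t of all genes. The B6-Chr16MSM males stood at 8.1201 and 8.1191, the MSM males at 8.1198 and 8.1222, the B6 males at 8.1505 and 8.1482, and the 56 males between 8.1476 and 8.1548. In residual SD, both B6-Chr16MSM males were more than 21 below the mean of the 56 (−21.8 and −22.4), and no male without MSM chromosome 16 was lower than −2.33. The difference was −0.0298 ± 0.0014 against B6 (adjusted p = 8.56e-16) and −0.0313 ± 0.0010 against the second reference (adjusted p = 1.35e-20). The direction belongs to the probe set with the highest signal, however: the mean of the gene's probe sets turned the sign (0.0137 against B6), as described with the probe sets below.

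Secreted and plasma proteins were among the other genes that fell. Kng1 encodes kininogen, the precursor of bradykinin and a cofactor of contact activation. In residual SD its B6-Chr16MSM males stood at −5.64 and −6.10 and its B6 males at 0.205 and −0.855, with the 56 males from −2.28 to 4.0, so that the groups did not overlap. Kng1 fell by 0.00247 ± 0.00044 against B6 (adjusted p = 0.00496), and the call was lost without B6-Chr16MSM male 1, without male 2 and without B6 male 1 (adjusted p from 0.0311 to 0.249 over the 4 fits). Pla1a, a secreted phospholipase A1 that acts on phosphatidylserine, stood at −4.75 and −6.12 in the B6-Chr16MSM males and at −0.257 and 0.132 in the B6 males. It fell by 0.00372 ± 0.00069 (adjusted p = 0.00621), a call lost without B6-Chr16MSM male 2 and without either B6 male (0.0367 to 0.189).

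Parp9, an interferon-inducible member of the ADP-ribosyltransferase family, fell by 0.00306 ± 0.00063 against B6 (adjusted p = 0.0202). Its B6-Chr16MSM males, at −3.36 and −3.53 residual SD, overlapped the 56 males, whose lowest stood at −4.34, and the MSM males were lower still at −5.14 and −6.19. No fit that omitted one of the 4 males kept this call, with adjusted p between 0.0684 and 0.977. Dtx3l, which encodes its partner protein and overlaps it, had an adjusted p of 0.895, and its relative Parp14 one of 0.986; both were looked up after the values were seen. A second Dtx3l probe set, 1439825_at, was called lower against the second reference (−2.85 and −3.19 residual SD, adjusted p = 0.0474) and had an adjusted p of 0.202 against B6.

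The other lower genes were spread over several roles. Dnajc28, of the DnaJ family of chaperone partners, fell by 0.00170 ± 0.00025 (adjusted p = 0.000569), with the males at −4.78 and −5.86 against 1.66 and 0.944 in B6, and kept its call with each male left out. Alg1, the mannosyltransferase that adds the first mannose to the lipid-linked precursor of N-glycans, fell by 0.000232 ± 0.0000427 (adjusted p = 0.00621). Mb21d2, Dgcr6 and the uncharacterised 2510002D24Rik fell with adjusted p of 0.01, 0.0174 and 0.00496. Cggbp1, which binds CGG repeats in DNA, and Rwdd2b fell with adjusted p of 0.0129 and 0.0202. The call of Alg1 was lost without B6-Chr16MSM male 2 and without either B6 male, and that of Dgcr6 likewise. Mb21d2 lost it without either B6-Chr16MSM male and without B6 male 1, and 2510002D24Rik without B6-Chr16MSM male 2 and B6 male 1. Cggbp1 lost it without B6-Chr16MSM male 1 and without either B6 male, and Rwdd2b with any male left out. Under quantile normalization Alg1, Dgcr6, Cggbp1, Rwdd2b and Pla1a lost their calls against B6, and Cggbp1 turned to higher (0.00288 against B6 and 0.00121 against the second reference), as did Alg1 against B6 (0.000140). Under the mean of its probe sets Cggbp1 had an adjusted p of 0.684. With a male left out the adjusted p reached 0.202 for Alg1, 0.389 for Dgcr6, 0.795 for Mb21d2, 0.250 for 2510002D24Rik, 0.872 for Cggbp1 and 0.686 for Rwdd2b. Trap1, the mitochondrial member of the HSP90 family, was the one gene called against B6 that the naming rule did not take. It fell with an adjusted p of 0.0175, a call lost without either B6-Chr16MSM male and without B6 male 1. Under quantile normalization its difference from B6 was 0, and the call was also lost with an intensity trend and with the male as a random block.

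**Figure D2:**
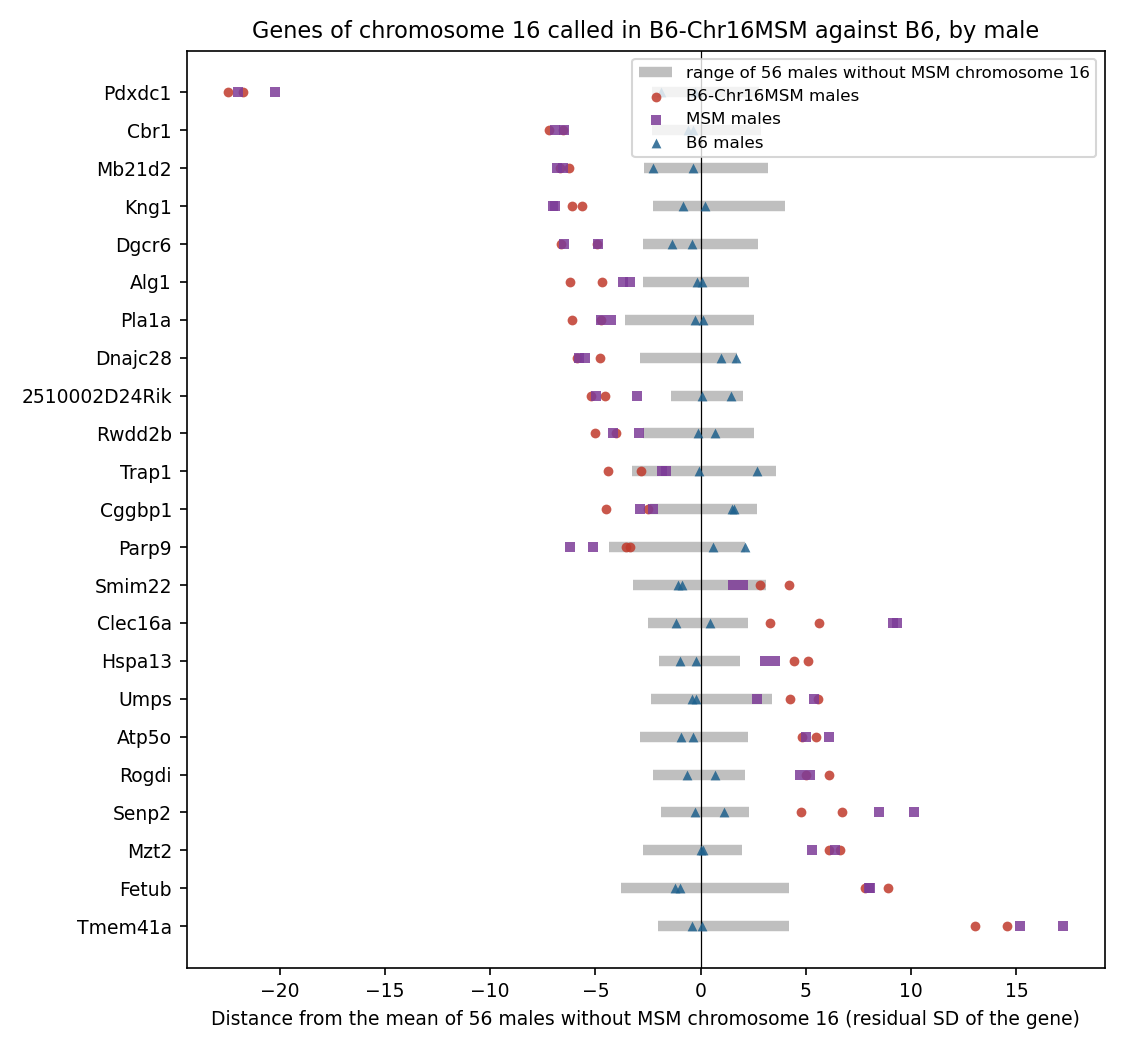
Distance of each male from the mean of the 56 males without MSM chromosome 16 (horizontal axis, residual SD of the gene) for the 23 genes called against B6; grey bars give the range of the 56 males, which include the B6 males. The B6-Chr16MSM males lie outside the grey range in 20 of the 23 genes, and Trap1, Smim22 and Parp9 are the exceptions.

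Of the genes that were higher, Tmem41a, which encodes a membrane protein, differed most clearly. Its values were 8.6623 and 8.6603 in the B6-Chr16MSM males, 8.6632 and 8.6660 in the MSM males and 8.6419 and 8.6425 in the B6 males, and no male without MSM chromosome 16 exceeded 8.6482. It rose by 0.0191 ± 0.0014 against B6 (adjusted p = 3.66e-11) and by 0.0188 ± 0.00097 against the second reference (adjusted p = 6.21e-15). Senp2, a protease that matures SUMO and removes it from proteins, lies close by. It stood at 4.75 and 6.73 residual SD in the B6-Chr16MSM males, at 8.45 and 10.1 in the MSM males and at 1.11 and −0.269 in the B6 males, above the whole range of the 56 (−1.87 to 2.31). Senp2 rose by 0.0121 ± 0.0022 (adjusted p = 0.00652), and lost its call without B6-Chr16MSM male 2 and without B6 male 2 (adjusted p from 0.0211 to 0.260).

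Fetub encodes fetuin-B, a protease inhibitor secreted by the liver that is needed for fertility in female mice. Its log2 values were 12.2155 and 12.2148 in the B6-Chr16MSM males and 12.2088 and 12.2087 in the B6 males, and the highest of the 56 was 12.2123. Fetub rose by 0.00641 ± 0.00067 (adjusted p = 4.59e-07) and kept its call with each of the 4 males left out (1.83e-05 to 0.000178). Mzt2, which encodes a component of the gamma-tubulin ring complex, rose by 0.00788 ± 0.0012 (adjusted p = 0.000958) and kept its call too (0.0251 to 0.0433).

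Hspa13, an HSP70 relative of the microsomes, stood at 5.10 and 4.42 residual SD in the B6-Chr16MSM males and at −0.991 and −0.217 in B6. It rose by 0.00874 ± 0.0016 (adjusted p = 0.00621). Of its 4 probe sets, 2 (1430026_at and the one used) were called higher, while 1429502_at and 1433772_at stood at −0.00411 and −0.000226 against B6, and under the mean of the probe sets the adjusted p was 0.947. Atp5o, a stalk subunit of the mitochondrial ATP synthase, stood at 5.45 and 4.81 against −0.372 and −0.931, and rose by 0.000663 ± 0.00011 (adjusted p = 0.00351). Umps, which catalyses the last steps of UMP synthesis, rose with an adjusted p of 0.00824, and Clec16a, a regulator of mitophagy and endosomal traffic, with 0.0199. Smim22, a small membrane protein, and Rogdi rose with adjusted p of 0.0433 and 0.00496. The call of Atp5o was lost without B6-Chr16MSM male 1 and without B6 male 2 (adjusted p up to 0.0987), and that of Rogdi with the same males left out (up to 0.212). Umps and Clec16a lost it without B6-Chr16MSM male 1 and without either B6 male (up to 0.400 and 0.9998), and Hspa13 and Smim22 with any of the 4 males left out (0.0561 to 0.250 and 0.125 to 0.9998). Under quantile normalization Umps, Clec16a and Atp5o lost their calls, with Umps at 0 against B6 and at −0.000169 against the second reference, and without the filter on low values Smim22 lost its call. In all, 6 of the 23 genes kept their call in each of the 4 fits: Pdxdc1, Tmem41a, Fetub, Cbr1, Dnajc28 and Mzt2.

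Some of the called genes lie next to each other. Smim22 and Rogdi are adjacent protein-coding genes and both rose. Tmem41a and Senp2, which are transcribed away from each other with 1 protein-coding gene between them, both rose as well. Ntan1 and Pdxdc1 are adjacent, are transcribed towards each other and overlap, and were called in opposite directions: Ntan1, an amidase of protein N-terminal asparagine, was higher against the second reference only, and the gene-level probe set of Pdxdc1 was lower. The promoters of these pairs are shown because both members of a pair were called and lie next to each other or 1 gene apart. Cldn14 and Hlcs, 1 gene apart and both higher against the second reference only, met the same condition and are not shown. CCAAT occurred in every Cldn14 window and in a Hlcs window. Each sequence is the 250 bases before an annotated start, 5′ to 3′ on the strand of the gene, from RefSeq on GRCm38.p6, which is the B6 reference and not the MSM allele. Capitals mark CCAAT and the NRF2-type element TGACNNNGC, on either strand.
Smim22, chr16:5007066-5007315, plus strand: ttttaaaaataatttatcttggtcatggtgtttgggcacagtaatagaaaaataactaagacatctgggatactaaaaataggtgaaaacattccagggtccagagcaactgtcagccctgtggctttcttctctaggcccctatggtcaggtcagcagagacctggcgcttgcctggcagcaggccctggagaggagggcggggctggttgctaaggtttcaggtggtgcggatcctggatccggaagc
Rogdi, chr16:5013554-5013803, minus strand: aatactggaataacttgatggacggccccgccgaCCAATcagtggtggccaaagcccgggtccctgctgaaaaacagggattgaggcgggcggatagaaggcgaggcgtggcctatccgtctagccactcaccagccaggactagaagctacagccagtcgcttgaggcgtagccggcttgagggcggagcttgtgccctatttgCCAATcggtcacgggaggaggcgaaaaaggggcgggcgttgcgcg
Ntan1, chr16:13819001-13819250, plus strand: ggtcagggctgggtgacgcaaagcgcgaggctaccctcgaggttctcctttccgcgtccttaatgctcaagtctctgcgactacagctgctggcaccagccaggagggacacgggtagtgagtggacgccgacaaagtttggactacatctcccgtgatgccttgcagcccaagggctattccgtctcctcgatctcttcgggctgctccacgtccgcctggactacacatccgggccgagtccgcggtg
Pdxdc1, chr16:13903146-13903395, minus strand: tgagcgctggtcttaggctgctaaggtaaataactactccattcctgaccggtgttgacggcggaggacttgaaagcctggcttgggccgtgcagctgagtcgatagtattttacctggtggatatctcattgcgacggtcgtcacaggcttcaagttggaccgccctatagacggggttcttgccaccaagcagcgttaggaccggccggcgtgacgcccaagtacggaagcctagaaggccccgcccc
Tmem41a, chr16:21947553-21947802, minus strand: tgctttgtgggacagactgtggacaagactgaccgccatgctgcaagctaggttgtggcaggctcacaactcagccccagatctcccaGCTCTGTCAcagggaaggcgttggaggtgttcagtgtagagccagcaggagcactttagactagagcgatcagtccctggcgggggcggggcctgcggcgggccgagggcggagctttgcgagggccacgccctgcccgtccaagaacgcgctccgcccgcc
Senp2, chr16:22009234-22009483, plus strand: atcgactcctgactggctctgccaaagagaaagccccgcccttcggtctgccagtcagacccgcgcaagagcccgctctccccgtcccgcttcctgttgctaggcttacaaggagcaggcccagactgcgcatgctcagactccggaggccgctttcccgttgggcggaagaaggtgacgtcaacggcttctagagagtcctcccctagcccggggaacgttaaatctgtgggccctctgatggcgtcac
The Rogdi promoter held 2 CCAAT boxes and the Tmem41a promoter 1 TGACNNNGC match, and no motif overlapped another. Those of Smim22, Senp2, Ntan1 and Pdxdc1 held none of the 4 motifs searched, which included TATAAA and the HNF4-type site CAAAGTCCA. Over all 32851 promoter windows of this length, 33.8% held CCAAT, 10.2% TGACNNNGC, 12.4% TATAAA and 0.384% CAAAGTCCA. Of the 39 called genes, 33 had a promoter entry (44 entries, since a gene can have several starts, as Smim22 has 2). Their windows held a median of 15.5 CpG sites, beside 6.0 over all windows. The latter were not limited to genes that passed the filter, so the medians do not set called against uncalled genes. The sequences of the MSM alleles were not used here.

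The probe sets of a gene did not always tell the same story. Of the 39 genes called against the second reference, 17 had another tested probe set, 28 in all. Of these 28, 23 lay in the same direction, 10 were called that way (in 9 genes) and 1 was called in the opposite direction. The other 22 genes rested on 1 tested probe set. The opposite call was in Pdxdc1. Its probe set 1419327_at stood at 42.3 and 44.0 residual SD in the B6-Chr16MSM males and at 47.1 and 47.2 in the MSM males, against 0.505 and 0.613 in the B6 males and a highest value of 3.13 among the 56. The difference of that probe set was 0.0882 ± 0.0021 against B6 (adjusted p = 1.23e-24 over all probe sets), while 1452705_at, which stood for the gene, was −0.0298. The other Pdxdc1 probe sets, 1428200_a_at and 1436372_a_at, lay below the second reference at adjusted p of 1.18e-05 and 0.112. All males with MSM chromosome 16 were thus far above every other male on one probe set and far below on another. Whether base differences between the alleles under the probes take part was not tested, for Pdxdc1 or for any other gene of chromosome 16.

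Kng1 and Senp2 gave a more uniform picture. The second Kng1 probe set, 1426045_at, stood at −9.26 and −10.0 in the B6-Chr16MSM males, −10.3 and −11.1 in the MSM males and 0.470 and 0.364 in the B6 males, lower than all 56 (from −4.42). Of the 4 Senp2 probe sets, 3 were higher in B6-Chr16MSM than in all 56 males and 1, 1455327_at, was within their range (0.225 and 1.37). Kng1 shares long stretches with its neighbour Kng2, so the 2 genes may not be fully separated on the array. Probe sets marked by the manufacturer as shared between transcripts of different genes or as cross-hybridising stood for 3 of the 39 called genes (2 and 1), and 8 of the 39 overlap another protein-coding gene.

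**Figure D3:**
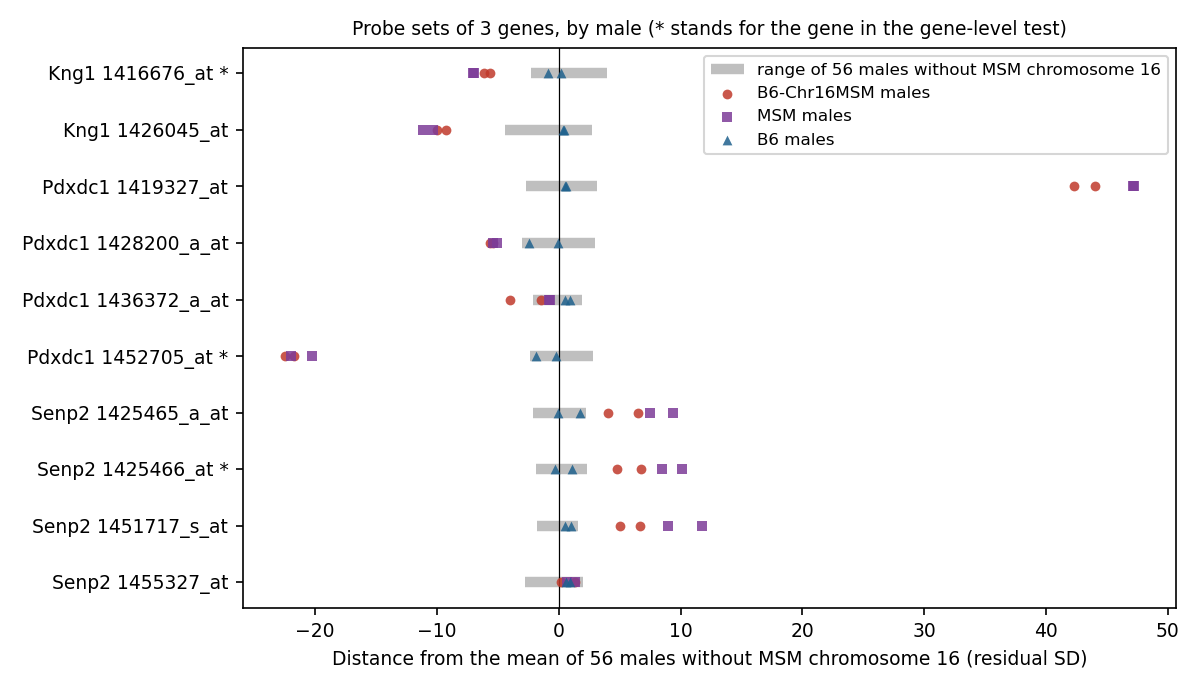
Distance of each male from the mean of the 56 males without MSM chromosome 16 (horizontal axis, residual SD of the probe set) for every tested probe set of Kng1, Pdxdc1 and Senp2, with the range of the 56 in grey; a star marks the probe set used at the gene level. Pdxdc1 1419327_at lies above 42 in both B6-Chr16MSM males and Pdxdc1 1452705_at below −21.

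When every probe set was tested on its own, an alternative added after the data were seen, 35 genes of chromosome 16 had a probe set called against B6 and 62 against the second reference, and 0 and 4 genes elsewhere. Several genes missed by their brightest probe set appeared here, named after their values were seen. For Zfp148, a zinc finger transcription factor, the probe set 1427730_a_at stood at 13.1 and 9.77 residual SD in B6-Chr16MSM and 9.86 and 11.5 in MSM, against −0.656 and −0.0381 in B6. For Gart, the trifunctional enzyme of purine synthesis, 1424436_at stood at 9.11 and 10.8 against 0.259 and 0.321. For Ube2v2, a ubiquitin-conjugating enzyme variant, 1417984_at stood at 10.4 and 8.58 against 2.04 and 0.957. In all 3 the B6-Chr16MSM males lay above all 56, yet the brightest probe set gave adjusted p of 1.0 for Zfp148, 0.0994 for Gart and 1.0 for Ube2v2 against the second reference. Sod1, the cytosolic superoxide dismutase, was higher on 1451124_at (4.79 and 6.09) and Zbtb20, the zinc finger repressor of fetal liver genes, lower on 1437066_at (−6.02 and −5.69), and their brightest probe sets were not called (adjusted p = 0.993 and 1.0).

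The second reference added 16 genes that B6 alone did not give. Among enzymes, Pmm2, the phosphomannomutase that supplies GDP-mannose for glycosylation, was lower by 0.000393 ± 0.000063 (adjusted p = 0.000386), and Pcyt1a, the rate-limiting enzyme of phosphatidylcholine synthesis from choline, higher by 0.000816 ± 0.000135 (adjusted p = 0.000589). The mitochondrial thioredoxin reductase Txnrd2 was lower (adjusted p = 0.0205) and the biotin ligase Hlcs higher (0.0278). The probe sets of Txnrd2 disagreed: 1451936_a_at was lower too (−0.000117), whereas 1429971_at and 1429972_s_at stood at 0.000164 and 2.19e-05. Its call was lost under the mean of the probe sets (adjusted p = 0.9998), and its sign turned under quantile normalization (0.000331). Pdia5, a protein disulfide isomerase, was lower by 0.00155 ± 0.00028 (adjusted p = 0.00247). Nr1i2, the pregnane X receptor, which induces drug-metabolising enzymes, was higher by 0.00428 ± 0.00085 (adjusted p = 0.00783), with the B6-Chr16MSM males at 3.43 and 3.77 residual SD, above the highest of the 56 at 2.92. Against B6 its adjusted p was 0.202. The others were Tango2, Vps26c, Klhl6 and Trmt10c, lower, and Gm20319, 2510009E07Rik, Ntan1, Cldn14, Tbc1d23 and 1700007L15Rik, higher. Calls were lost without either B6-Chr16MSM male for Tango2, Txnrd2, Klhl6, Ntan1, Nr1i2, Trmt10c, Cldn14, Hlcs and Vps26c, without male 2 for Pmm2, Pdia5, 2510009E07Rik and Tbc1d23, and without male 1 for Pcyt1a and Gm20319. Under quantile normalization, of these genes Gm20319, 2510009E07Rik and Trmt10c kept their calls. Of the 39 calls against the second reference, 15 were kept in each of the 4 fits with a B6-Chr16MSM or a B6 male left out.

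The called genes were spread over the chromosome. In 4 equal runs of tested genes from the centromeric to the distal end, 9, 12, 8 and 10 were called against the second reference, of 94, 94, 94 and 95. The first was gene 9 in order (Trap1) and the last gene 359 (Vps26c) of 377, and the largest step from one called gene to the next was 39 genes. Both directions occurred in each run, with 5 higher and 4 lower, 5 and 7, 4 and 4, and 5 and 5 in the 4 runs. The median absolute difference from the second reference was 0.887 residual SD for genes of chromosome 16 and 0.451 elsewhere, and the 90th percentile was 3.2 and 1.14.

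**Figure D4:**
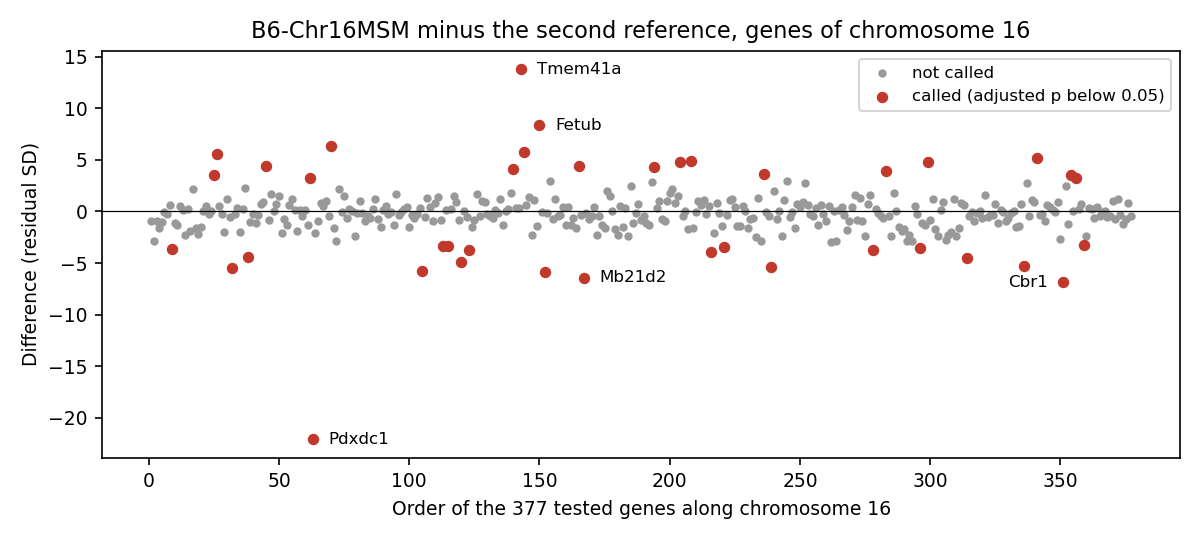
Difference between B6-Chr16MSM and the second reference (vertical axis, residual SD) for the 377 tested genes in their order along chromosome 16, with called genes in red. Called genes appear in every stretch, from gene 9 to gene 359, and Pdxdc1 (lower) and Tmem41a (higher) stand farthest from 0.

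The comparison with MSM asked how much of the parental difference came with the chromosome. MSM minus B6 gave 96 calls among the 377 genes of chromosome 16 (25.5%, 62 higher and 34 lower), about the share over all genes (24.7%). Omitting B6 male 1 or 2 left 53 or 60 calls, omitting MSM male 1 or 2 left 58 or 62, and the count was 46 with these strains alone, so the shares below rest on a list that depends on single males. To keep the comparisons apart, B6-Chr16MSM was set against the 27 other consomic strains without B6, which shares no male with MSM minus B6. Of the 96 genes, 69 (71.9%) differed in the same direction there, 32 of the 34 that were lower in MSM and 37 of the 62 that were higher. In each of the 27 other consomic strains, set against the rest in the same way, between 31 and 60 of the 96 (32.3% to 62.5%) lay in the direction of MSM. For genes elsewhere, B6-Chr16MSM lay in the direction of MSM in 1126 of 2861 (39.4%), within the range of the other strains (30.8% to 60.8%). The median share of the MSM difference carried by B6-Chr16MSM was 34.0% for the 96 genes, beside −7.05% to 6.96% in the other strains.

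Of the 39 genes of chromosome 16 called against the 27 strains, 32 were called in MSM minus B6 (82.1% of the 39 and 33.3% of the 96), all 32 in the same direction. Quantile normalization of the arrays changed the MSM counts most, with 303 genes of chromosome 16 called higher and 8 lower in MSM minus B6, and moved the median gene of that comparison from 0.592 to 6.02 residual SD. For B6-Chr16MSM minus B6 it moved the median gene from 0.139 to 0.417. For the 23 genes called against B6, the difference from the 27 strains was between 46.3% (Clec16a) and 157% (Alg1) of the MSM difference, with a median of 111%, and lay between 80% and 120% in 13 of them. These genes were chosen for their difference from B6, so the shares are a description.

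**Figure D5:**
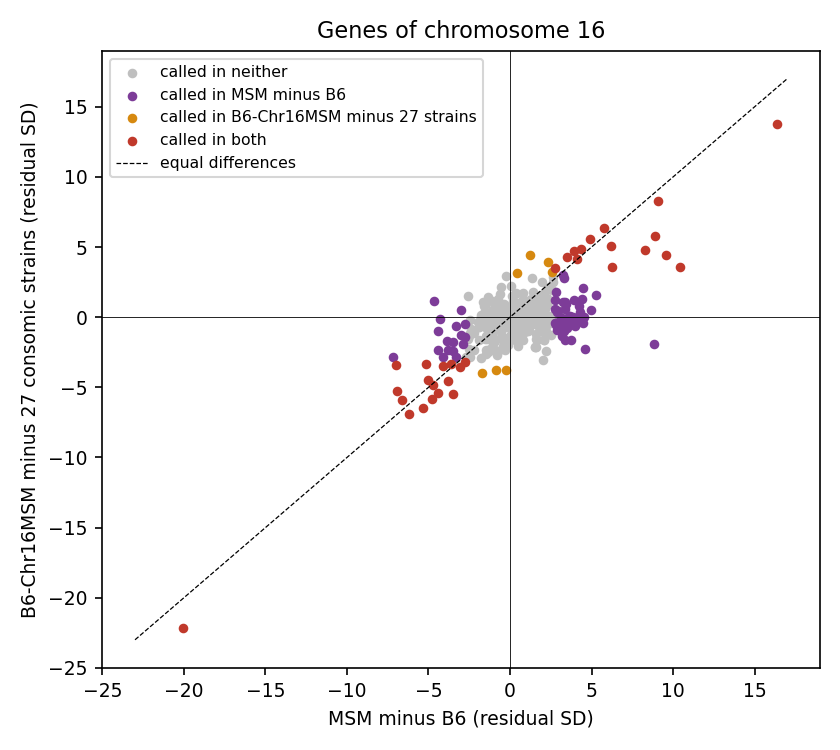
Difference between MSM and B6 (horizontal axis) and between B6-Chr16MSM and the 27 other consomic strains (vertical axis), both in residual SD, for the 377 tested genes of chromosome 16; the dashed line marks equal differences and no male enters both axes. The 32 genes called in both (red) differ in the same direction on both axes, and most genes called in MSM minus B6 alone (purple) lie below the line on its right side.

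MSM and B6-Chr16MSM share chromosome 16 and differ in the others. MSM minus B6-Chr16MSM gave 71 calls on chromosome 16 (58 higher and 13 lower in MSM; 303 and 3 under quantile normalization), or 18.8%, beside 26.0% of all tested genes. It gave 32 and 47 calls without B6-Chr16MSM male 1 or 2, 35 and 31 without MSM male 1 or 2, and 11 with these strains alone. MSM minus B6 uses the same MSM males, which favours shared calls on the same side, so the overlap is a description only. Of the 96 genes called in MSM minus B6, 39 were also called in MSM minus B6-Chr16MSM, 34 higher and 5 lower in MSM in both. Rtp4, an interferon-inducible chaperone of receptors, was among them and is named after its values were seen: it stood at −4.76 and −5.60 residual SD in the MSM males but at 1.63 and 0.702 in the B6-Chr16MSM males. The mitochondrial chaperone Dnaja3, chosen in the same way, stood at 8.12 and 11.8 in MSM and at −1.99 and −1.87 in B6-Chr16MSM. In both the strains with the same chromosome 16 lay on opposite sides of the 56-male mean. Conversely, 7 of the 39 genes called against the second reference were not called in MSM minus B6: Ntan1, Klhl6, Gm20319, Pdia5, Trmt10c, Tbc1d23 and Hlcs. The difference between MSM and B6-Chr16MSM itself passed the test in Ntan1, Klhl6 and Gm20319 and did not in the other 4. That test uses again the B6-Chr16MSM males by which these genes were selected, so its outcome is a description only.

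Lists of chromosome 16 genes by role count each gene at its brightest probe set. They are read against the 6.1% of all tested genes of the chromosome called against B6 and the 10.3% called against the second reference. Of 8 tested plasma protein genes, 1 was higher (Fetub) and 2 lower (Kng1 and Pla1a) against either reference. The remaining members had differences from B6 of −0.305 residual SD for the fetuin Ahsg, −0.353 for Hrg (histidine-rich glycoprotein), 0.304 for Serpind1 (heparin cofactor), −1.37 for Masp1 (a lectin pathway protease) and −0.0519 for Apod (apolipoprotein D), with adjusted p of 0.932 or more. Another Masp1 probe set, 1425985_s_at, was called lower against the second reference (−3.06 and −3.09 residual SD, adjusted p = 0.0387). Its adjusted p against B6 was 0.403. The median of the list was −0.329 residual SD beside 0.139 over all tested genes.

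The 4 receptor chains of the interferon and interleukin 10 families on chromosome 16, through which these cytokines signal to JAK kinases, did not pass the test. Ifnar1 differed from B6 by −2.22 residual SD (adjusted p = 0.850), Ifnar2 by 2.18 (0.850), Ifngr2 by −2.02 (0.874) and Il10rb by 0.968 (0.944). Of 20 tested interferon response genes, 1 was lower (Parp9, itself on chromosome 16), none was higher (0), and 15 had a positive difference from B6, with a median of 0.791. Against the second reference 11 of the 20 were positive and the median was 0.422.

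Of 12 tested regulators of transcription, at the brightest probe sets none (0) was called against B6, and Nr1i2 alone was called against the second reference. Gabpa, an ETS factor of mitochondrial and housekeeping genes, came closest in B6-Chr16MSM minus B6 (−4.43 residual SD, adjusted p = 0.0501). The differences from B6 were −1.28 for Zbtb20, −0.0937 for Bach1 (a heme-regulated repressor), −0.207 for the coactivator Crebbp, −0.980 for Ets2, 1.41 for Runx1, −2.10 for the repressor Bcl6, −0.447 for the corepressor Nrip1, 0.676 for Hes1, 1.20 for Nfkbiz and 0.360 for Etv5. None of these 10 had an adjusted p below 0.861 against B6. On other probe sets, Zbtb20 (1437066_at) was called lower against B6 too (adjusted p = 0.0017). Nrip1 (1418469_at) was called lower against the second reference (adjusted p = 0.0247) and not against B6 (0.841). Of 15 tested targets of the pregnane X receptor, all on other chromosomes, none (0) was called against either reference, and the median was −0.236 residual SD against B6 and 0.0411 against the second reference. Cyp3a11, a major drug-metabolising cytochrome P450, stood at −2.26 against B6 and −1.18 against the second reference.

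Of 19 metabolic enzymes of chromosome 16, 1 was higher (Umps) and 1 lower (Cbr1) against B6, and 3 and 3 against the second reference. Of 12 mitochondrial proteins, Atp5o was higher against B6, and 1 was higher and 2 lower (Txnrd2 and Trmt10c) against the second reference. Of 48 tested genes with counterparts on the human chromosome of Down syndrome, 2 were higher (Atp5o and Hspa13) and 2 lower (Cbr1 and Rwdd2b) against B6, with a median of −0.194 residual SD. Of 11 protein turnover genes 1 was higher (Hspa13). Ube2v2, of the same list, was higher on another probe set, as given above. Another Ltn1 probe set, 1452611_at, was called lower against B6 (adjusted p = 6.05e-05) and against the second reference (2.09e-07). On it the B6-Chr16MSM males stood at −7.05 and −6.71 residual SD, below all 56 males. Among the Down syndrome counterparts, Ltn1, Gart, Sod1 and App had another probe set called against the second reference, the last 3 higher. Of 7 transporters none was called (0), although at the brightest probe sets all 7 had a negative difference from both references (medians −0.652 and −0.442). Another Abcf3 probe set, 1426748_s_at, was called higher against B6 (adjusted p = 0.0088) and against the second reference (5.67e-05). On it the B6-Chr16MSM males stood at 5.245 and 5.048 residual SD, above all 56 males. Cldn14, a tight junction claudin, was higher against the second reference only, the single call among 6 tight junction genes. None (0) of the stefin genes was tested.

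Genes on other chromosomes differed little. The 2 calls against the second reference were Oasl1, an interferon-induced relative of the oligoadenylate synthetases on chromosome 5, and Mr1, which presents vitamin B metabolites to T cells, on chromosome 1. Oasl1 stood at 3.33 and 3.58 residual SD in the B6-Chr16MSM males, just above the highest of the 56 males at 3.06, and Mr1 at 2.92 and 3.80 with 2.76 as the highest (adjusted p = 0.0122 and 0.0257). Against B6 their adjusted p was 0.850 and 0.706. The MSM males stood at −4.13 and −4.65 for Oasl1, on the other side. Without B6-Chr16MSM male 1 there was no call elsewhere against the second reference (0), and with the male as a random block there were 37.

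In the lists of liver pathways and cell type markers, 275 genes of other chromosomes were tested, and none was called against either reference (0 and 0), with 12 and 19 at an unadjusted p below 0.05. Some lists leaned to one side without a call. All 17 tested genes of cholesterol synthesis had a positive difference from the second reference (median 1.45 residual SD beside 0.02 over all tested genes, of which 6124 of 11949 were positive), and 14 of 17 from B6 (median 0.518). Of 18 glucocorticoid and fasting response genes, which include the gluconeogenic Pck1 and the metallothioneins, 17 were negative against either reference (medians −0.833 and −0.719), with Pck1 at −3.45 residual SD against B6 (adjusted p = 0.317). Of 21 acute phase genes 16 were positive against B6 (median 0.652) and 9 against the second reference (−0.0636).

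Marker levels of other cell types were compared as sums of log2 values over each list. Kupffer cell and macrophage markers (16 measured) summed to 134.2497 and 134.3059 in the B6-Chr16MSM males and to 134.2521 and 134.2562 in the B6 males, so that the strains overlapped. The 12 endothelial markers overlapped as well (102.3499 to 102.3597 against 102.3569 to 102.3586), and all 11 tested members had a negative difference from the second reference (median −0.686). The sums weigh the less compressed probe sets most, so the medians in residual SD stand beside them. The 14 stellate and fibroblast markers summed to 119.6223 to 119.645 against 119.6057 to 119.6067, without overlap. Their median was 0.233 against B6 and −0.083 against the second reference over 12 tested (8 and 5 positive). The 9 hepatocyte markers summed to 116.5789 to 116.58 against 116.5879 to 116.6035, also without overlap. Their medians were −0.556 and −0.153 (2 and 3 positive). The 6 measured adipocyte markers summed to 50.26282 to 50.26481 against 50.26064 to 50.26191, again without overlap. Over the 4 adipocyte markers tested, the medians were 0.442 and 0.643 (4 and 3 positive). The medians of the 14 tested Kupffer cell and macrophage markers were 0.631 and −0.138 (12 and 4 positive). Pancreas markers, 4 of 6 above the filter level, overlapped (45.23298 to 45.2333 against 45.20373 to 45.23656). Of 10 lymphocyte markers 5 were above it, and Cd79a, Nkg7, Ncr1, Cd3g and Ms4a1 were not. Of 6 muscle markers 1 was, and Mylpf, Actn3, Acta1, Myh4 and Tnnt3 were not. None of the marker genes was called (0), and their part in the differences on chromosome 16 was not tested.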

How the data were processed

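Livers were measured on Affymetrix mouse genome arrays, per the labels. The authors deposited 1 table of log2 values per probe set, already normalized between arrays (array medians 7.416 to 7.417); the log base was read from the values (6.34 to 14.8), and neither the summary method nor the kind of normalization is stated in the labels. Of 45037 probe sets, 34945 carried 1 gene symbol, 932 several and 9160 none (the last 2 classes were left out); 34741 matched a GRCm38.p6 gene by gene ID and 204 did not. A gene was represented by its probe set with the highest mean. limma 3.58.1 (R 4.3.3) fitted 1 mean per strain over 60 males of 30 strains, with 30 residual and 0.592 prior degrees of freedom and Benjamini-Hochberg adjustment within a comparison. It was tested on simulated data. Genes were named by a rule: up to 12 higher and 12 lower genes called against both references, the 5 of chromosome 16 with the largest t against the second reference, called list members, and all tested plasma proteins, receptor chains and transcription regulators. The remaining called genes of chromosome 16 were named in addition. Members and lists were chosen with earlier results of these data known. Alternatives covered normalization, filter, probe sets, moderation, the arrays of a male, the samples fitted and each male left out. No set test, detection call or pseudocount was used.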

Additional observations from a re-analysis of the deposited data

Results flagged for a closer look

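Of the 39 genes of chromosome 16 called against the second reference, 7 differed between MSM and B6-Chr16MSM, which both carry the MSM chromosome. The receptor chain Ifnar2, named from its list, differed too. The difference was tested in limma (2 males against 2). That test called 18.8% of the tested genes of chromosome 16 and 26.0% of all tested genes. The share of the 39 that differed was thus close to that of the chromosome as a whole. Nr1i2 was higher in MSM by 0.00790 ± 0.0012 (SE, deposited log2 scale; adjusted p = 6.76e-06), Senp2 by 0.00805 ± 0.0022 (0.00819), Clec16a by 0.000217 ± 0.000045 (0.000574), 1700007L15Rik by 0.000136 ± 0.000034 (0.00381) and Klhl6 by 0.0000771 ± 0.0000215 (0.00828). Ntan1 was lower in MSM, at −0.0005 ± 0.00014 (adjusted p = 0.00787), as were Gm20319 at −0.013 ± 0.0042 (0.0208) and Ifnar2 at −0.000117 ± 0.000043 (0.0436). In Nr1i2, Senp2, Clec16a and 1700007L15Rik the B6-Chr16MSM males lay between the 56 males without MSM chromosome 16 and the MSM males. Of the genes named after their values were seen, Dnaja3 (higher in MSM, adjusted p = 9.21e-11), Rtp4 (lower, 1.35e-05) and Parp14 (lower, 0.00417) differed as well.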

How the results depend on the processing

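Against B6 on chromosome 16 (23 calls), quantile normalization gave 14, the male as a random block 35, a fit on the strains compared alone 0, and each probe set tested on its own, chosen after seeing the data, 35; leaving out a male gave 9 to 12. Elsewhere (0 calls) these gave 7, 17, 0 and 0, and 0 to 1. Against the second reference, quantile normalization gave 20 on chromosome 16 and 5 elsewhere, single probe sets 62 and 4, the random block 37 elsewhere, no filter 4 elsewhere, a filter at the 75th percentile 0 and the mean of probe sets 4; leaving out a male gave 21 to 39 and 0 to 2. MSM minus B6 on chromosome 16 gave 311 under quantile normalization, 46 with these strains alone and 53 to 62 with a male left out, and MSM minus B6-Chr16MSM gave 306, 11 and 31 to 47. The sign turned under the mean of all probe sets for Pdxdc1 (0.0137 against B6, 0.0138 against the second reference). Under quantile normalization it turned for Cggbp1 (0.00288 and 0.00121), Alg1 (0.000140 against B6) and, against the second reference, Trap1 (6.6e-05), Umps (−0.000169) and Txnrd2 (0.000331), while the differences of Trap1 and Umps from B6 were 0; the cause was not tested. Robust moderation changed no call of a named gene. No paired analysis was possible because the strains share no animal number. With 2 males a strain, no call against B6 was smaller than 4.49 residual SD, and none against the second reference smaller than 3.2.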
